A study of Rattus norvegicus with 32 samples.

Results

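Nicotinamide adenine dinucleotide (NAD) is made, recycled and spent by a small set of enzymes, and 10 of their genes were followed here in the left ventricle of rats with sepsis. The genes were Nmrk1, Nmrk2, Nampt, Nadsyn1, Nmnat1, Nmnat3, Nnmt, Cd38, Sirt1 and Sirt3. They were found by symbol among the non-control probes of the array, where 17 of 45598 probes carried one of the 10 names, out of 21310 genes named on the array. The set was selected on these data, since Nmrk2 had the largest fall of all probes after sepsis in males. The difference in males between the CLP group and the sham group chose Nmrk2 and is therefore given without a test for all 10 genes. In that contrast the Nmrk2 probe differed by -4.50 on the log2 scale, and the next probes were those of C2cd4a at -4.29 and Grifin at -3.94.

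Sepsis was induced by caecal ligation and puncture (CLP), in which the caecum is tied and pierced so that gut bacteria enter the abdomen, and sham animals were operated on without it. Landiolol, which blocks the cardiac β-adrenergic receptor for a short time, was infused after CLP in the CLP plus landiolol group, while the CLP group received saline. Each sex had 5 sham, 5 CLP and 6 CLP plus landiolol hearts from young adult Wistar rats, collected at 20 h, and each heart was hybridised to its own 1-colour Agilent array. All animals were reused from an earlier experiment and all hearts were perfused outside the body before freezing, so every group carries that procedure. The tissue was whole left ventricle. All 8 cardiomyocyte markers examined, among them Myh6 and Tnnt2, were well above background on all 32 arrays. Between 34920 and 43155 of 58717 non-control spots per array were well above background and 0 were saturated. The number of arrays limits the precision. Males and females were hybridised on different slides, so a difference in level between the sexes cannot be told apart from the slides. In females all sham arrays lay in the first row of their slides and all CLP plus landiolol arrays in the second. A fit with row as a term therefore rests in females on the CLP arrays, 3 in the first row and 2 in the second. It separates row from group poorly.

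NAD carries electrons in energy metabolism and is also consumed as a substrate by several enzymes, so that cells must rebuild it. In heart muscle most NAD is rebuilt from nicotinamide by NAMPT or from nicotinamide riboside by the kinases NMRK1 and NMRK2, and both routes yield nicotinamide mononucleotide, which NMNAT enzymes turn into NAD. NADSYN1 completes the routes that start from nicotinic acid and tryptophan. CD38 and the sirtuins cleave NAD, and NNMT methylates nicotinamide and so removes it from recycling. NMRK2 is the form of the kinase found mainly in muscle.

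Each value comes from a probe of 60 bases, and the sequences of 3 probes are given to show which bases were read. They come from the deposited scanner files, with positions on build rn4, and no base is marked by a capital. Exon and UTR positions of the probes were not given in the sources used here.
Nmrk2 (chr7:10001669-10001728, plus strand): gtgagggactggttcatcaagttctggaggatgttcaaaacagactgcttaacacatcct
Nampt (chr6:51165369-51165428, plus strand): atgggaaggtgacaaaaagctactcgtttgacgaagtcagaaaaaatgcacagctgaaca
Nmnat1 (chr5:166550146-166550205, minus strand): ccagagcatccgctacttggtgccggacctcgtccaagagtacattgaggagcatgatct
The Nmrk2 probe is the brighter of a pair for this gene, the Nampt probe stands for the alternative recycling route, and the Nmnat1 probe is an independent second reading of that gene. Their GC contents were 45%, 41.7% and 55%.

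On the brighter probe Nmrk2 was lower in every septic heart of both sexes than in any sham heart. In males the log2 levels were 10.08, 10.33, 9.49, 11.12 and 9.94 in sham hearts and 5.85, 6.20, 5.25, 4.98 and 6.20 in CLP hearts. In CLP plus landiolol males they were 6.67, 8.43, 7.26, 8.14, 6.76 and 7.83, above all CLP hearts and below all sham hearts. The 3 male groups thus did not overlap, with means of 10.19 ± 0.60 (SD, n = 5), 5.70 ± 0.56 (SD, n = 5) and 7.51 ± 0.73 (SD, n = 6). The CLP mean was 22.6-fold below sham. The landiolol mean lay 1.82 (SE 0.36) above CLP, or 3.52-fold, and differed from sham by -2.68, or 6.40-fold. These male values share the arrays that chose the gene and carry no test.

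The male ranking that chose Nmrk2 did not use females. The genes were still chosen with earlier results of these data known, so the female tests are not an independent check. Female Nmrk2 levels were 9.75, 10.19, 9.56, 9.87 and 9.59 in sham hearts. Levels in CLP hearts were 5.87, 5.69, 5.27, 6.19 and 4.87, the last not well above background. In CLP plus landiolol hearts they were 6.55, 5.82, 5.86, 8.38, 6.19 and 5.59. The sham hearts stood apart from both septic groups, and the septic groups overlapped, with 1 landiolol heart well above the others. Nmrk2 fell by 4.21 (SE 0.42) on the log2 scale in the CLP group against sham, an 18.5-fold difference (limma, adjusted p = 3.12e-05, lower in 5 of 5 hearts). Among all probes tested in females this was the 9th largest fall. In the CLP plus landiolol group Nmrk2 fell by 3.39 (SE 0.40) against sham (limma, adjusted p = 9.53e-05, lower in 6 of 6 hearts). With array row as a term this second difference was -3.31 (SE 0.74) and was no longer called (limma, adjusted p = 0.083), while the fall in the CLP group was -4.18 and was called (limma, adjusted p = 0.000472). The landiolol group exceeded the CLP group by 0.82 (SE 0.40), which did not pass the test (limma, adjusted p = 0.551, 95% interval -0.02 to 1.66). Without the highest landiolol heart that difference was 0.42.

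Slide did not change the direction of these differences. Within the 2 female slides Nmrk2 in the CLP group differed from sham by -3.69 and -4.69 on the log2 scale, and in the landiolol group by -3.43 and -3.44. The landiolol group exceeded the CLP group by 0.26 and 1.26 within the female slides and by 1.69 and 1.98 within the male slides. The male excess over CLP was thus 1.82 beside 0.82 in females, and the difference between the sexes was 1.0 (SE 0.56), given as a description because it uses the same male arrays.

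**Figure D1:**
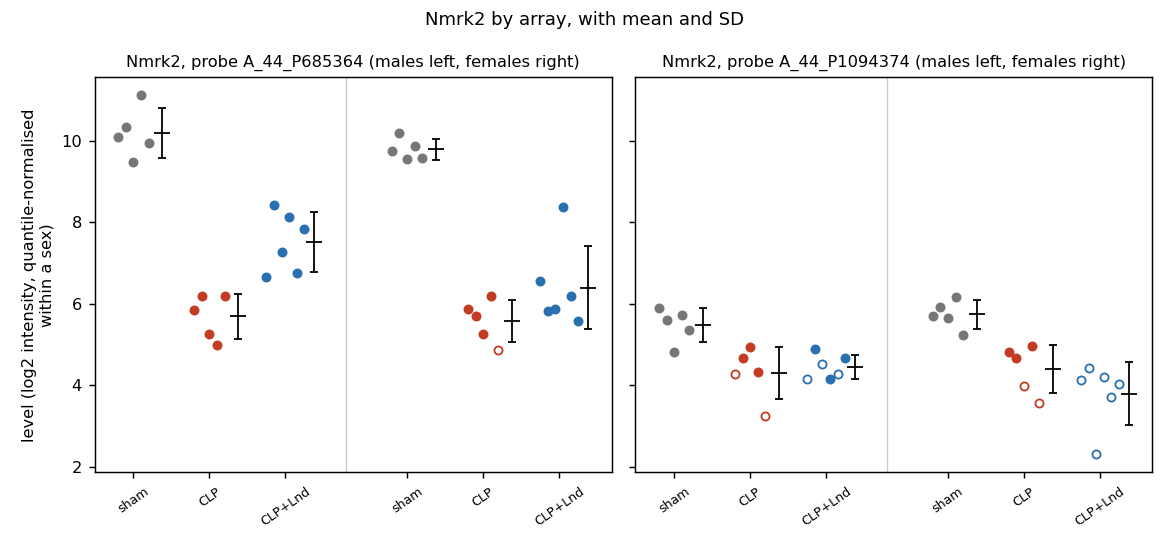
Log2 level of Nmrk2 on each of the 32 arrays by group and sex, for the brighter probe (left) and the dimmer probe (right). Each point is 1 heart, filled where the probe was well above background, and bars mark the group mean and SD. CLP+Lnd stands for CLP plus landiolol. On the brighter probe all sham hearts lie above 9.4 and 1 female CLP plus landiolol heart reaches 8.38, close to the highest landiolol male at 8.43.

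A second, dimmer probe for Nmrk2 (chr7:10001225-10001284) matched a predicted transcript variant and was close to background after sepsis. In females its level was 5.74 ± 0.35 (SD, n = 5) in sham hearts, 4.40 ± 0.59 (SD, n = 5) in CLP hearts and 3.80 ± 0.77 (SD, n = 6) in CLP plus landiolol hearts. It was well above background in 5 of 5 sham, 3 of 5 CLP and 0 of 6 landiolol females. It passed the filter on dim probes through the sham hearts alone, where it was highest, so its values are a description with no test. Where a probe is below background in a whole group only a bound can be given, set by the lowest signal that was well above background on each array, and landiolol females were at least 3.09-fold lower than sham. The difference in CLP females was -1.34 (SE 0.36). In males the level was 5.48 ± 0.42 (SD, n = 5) in sham, 4.29 ± 0.64 (SD, n = 5) in CLP and 4.44 ± 0.30 (SD, n = 6) in landiolol hearts. These male groups overlapped. The highest CLP male, at 4.94, and the highest landiolol male, at 4.88, lay above the lowest sham male, at 4.81. The mean of the dimmer probe was lower after CLP in both sexes, and its male landiolol mean was only 0.15 above the CLP mean, against 1.82 on the brighter probe.

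The set as a whole was split between a few falling genes and a majority that did not pass. In CLP females limma called 1 of the 9 genes other than Nmrk2 at a false discovery rate (FDR) of 1%, Nmnat1, which was lower. Over all 25395 probes tested 3.63% were called and 1.82% called lower. Nmrk2, which is in the set for its fall, was called lower too. The median difference over the 10 genes, Nmrk2 included, was -0.33 beside -0.015 over all probes. In landiolol females against sham Nmnat1 was again the 1 gene of these 9 called lower. Nmrk2 was called lower too, with 5.25% of all probes called and 2.24% called lower. In landiolol females against CLP, limma called 0 of 10 genes at an FDR of 5%, with 1 of 10 under an unadjusted p of 0.05 and 0 by significance analysis of microarrays (SAM), where 0.0945% of all probes were called. In males the CLP contrast chose the set, so no calls are counted for the 10 genes there, and over all 25866 probes 7.81% were called and 3.94% called lower. In landiolol males against CLP, limma called 0 of the 9 genes other than Nmrk2, with 0 under an unadjusted p of 0.05 and 0 by SAM, beside 1.56% of all probes. Against sham, limma called 0 of these 9 genes in landiolol males, with 5 under an unadjusted p of 0.05 and 1, Nmrk1, by SAM, beside 4.15% of all probes called and 1.76% called lower.

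**Figure D2:**
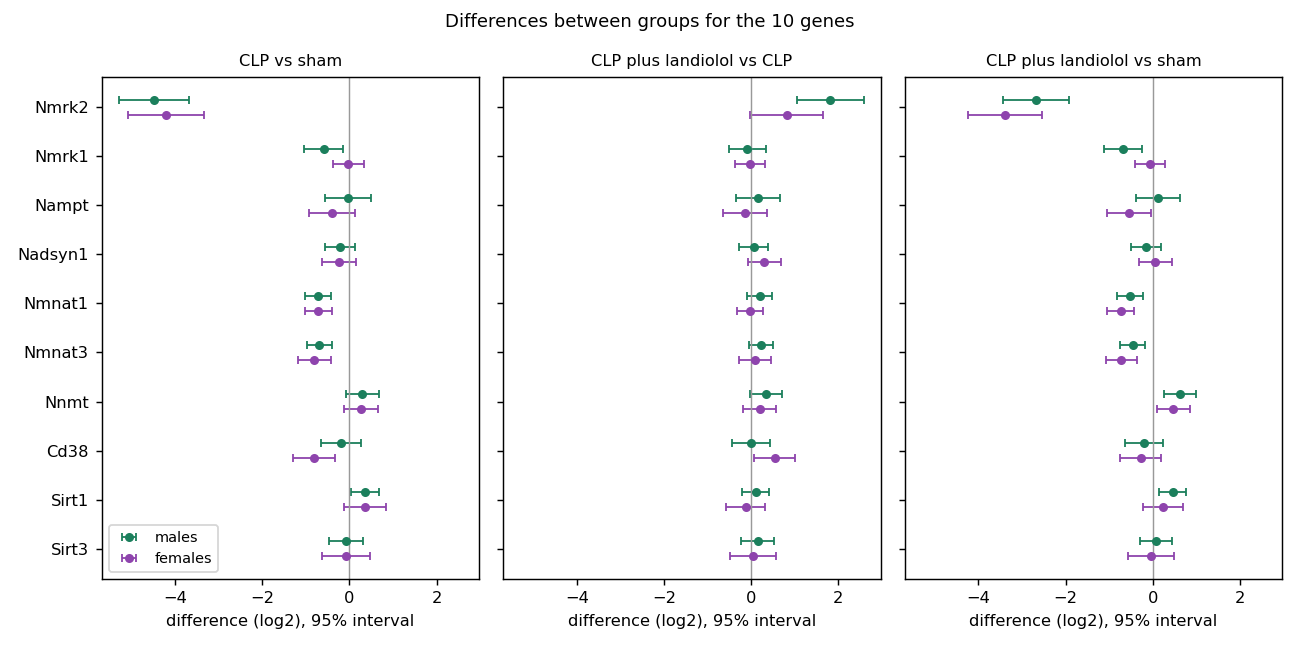
Differences on the log2 scale for the 10 genes in 3 contrasts, males and females side by side, with 95% intervals from the limma fit of each sex. The male CLP contrast with sham chose Nmrk2. Its intervals, and those of Nmrk2 in all male contrasts, are therefore a description and not a test. Nmrk2 lies far below 0 against sham in both sexes, Nmnat1 and Nmnat3 lie between -0.46 and -0.81 against sham, and the intervals of Sirt3 include 0 in all 3 female comparisons.

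Nmrk1, the widely expressed form of the riboside kinase, had no such fall in females. Its female levels ranged from 6.60 to 7.32 in sham, 6.77 to 7.39 in CLP and 6.55 to 7.20 in CLP plus landiolol hearts, so the groups overlapped. The CLP difference was -0.03 (limma, adjusted p = 0.948, 95% interval -0.39 to 0.33) and the landiolol difference from sham was -0.06 (limma, adjusted p = 0.866). In males the levels were 7.62, 7.50, 7.60, 7.66 and 7.33 in sham hearts and 7.56, 6.92, 7.38, 6.58 and 6.33 in CLP hearts. Landiolol males, from 6.55 to 7.23, lay wholly below the sham males. Their difference from sham was -0.68 (SE 0.20), which did not pass the 1% threshold (limma, adjusted p = 0.0419). It was called by SAM and with slide as a term, where the adjusted p was 0.00893. The difference from CLP was -0.09 (limma, adjusted p = 0.85). The other Nmrk1 probe was well above background on 1 of 32 arrays and was not tested.

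Nampt, whose enzyme is rate-limiting in recycling nicotinamide, did not pass any test. Female levels were 11.40, 10.58, 10.32, 9.85 and 10.57 in sham hearts, 9.75 to 10.54 in CLP hearts and 9.48 to 10.31 in landiolol hearts, with overlap throughout. The CLP difference was -0.41 (limma, adjusted p = 0.361, 95% interval -0.94 to 0.12), and the landiolol difference from sham was -0.55 (limma, adjusted p = 0.152). In males the means were 9.41 ± 0.34 (SD, n = 5), 9.37 ± 0.29 (SD, n = 5) and 9.53 ± 0.54 (SD, n = 6) in sham, CLP and landiolol hearts. The landiolol males differed from CLP by 0.16 (limma, adjusted p = 0.768) and from sham by 0.12 (limma, adjusted p = 0.807). A second Nampt probe was more variable and also had no call, with a landiolol difference from CLP of 0.75 in males (limma, adjusted p = 0.386) and 0.32 in females (limma, adjusted p = 0.863).

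Nadsyn1, the last enzyme of the routes from nicotinic acid and tryptophan, had similar means in all groups. In females they were 7.04 ± 0.08 (SD, n = 5) in sham, 6.79 ± 0.42 (SD, n = 5) in CLP and 7.10 ± 0.26 (SD, n = 6) in landiolol hearts. The CLP difference was -0.25 (limma, adjusted p = 0.471, 95% interval -0.64 to 0.14). In landiolol males it was 0.06 above CLP (limma, adjusted p = 0.869) and -0.15 from sham (limma, adjusted p = 0.592). The other Nadsyn1 probe was well above background on 0 of 32 arrays.

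Of the NMNAT genes, whose enzymes carry out the adenylyl transfer shared by all routes, Nmnat1 was called lower in both septic groups of females. NMNAT1 is the nuclear form. Nmnat1 levels in females were 9.29, 9.08, 9.04, 9.25 and 8.92 in sham hearts and 8.76, 8.22, 8.60, 8.19 and 8.25 in CLP hearts. In landiolol females they were 8.36, 8.45, 8.20, 8.76, 8.39 and 8.14. Every septic female lay below every sham female, and the septic groups overlapped. Nmnat1 fell by 0.71 (SE 0.15), or 1.64-fold, in CLP females (limma, adjusted p = 0.00706) and by 0.73 (SE 0.14), or 1.66-fold, in landiolol females (limma, adjusted p = 0.00347). The landiolol group differed from CLP by -0.02 (limma, adjusted p = 0.984, 95% interval -0.33 to 0.28). The second Nmnat1 probe, whose sequence is given above, was called in both contrasts too, at -0.68 (limma, adjusted p = 0.00701) and -0.70 (limma, adjusted p = 0.00335). With row as a term the differences on the first probe were -0.59 and -0.43, and both calls were lost (limma, adjusted p = 0.0578 and 0.635). The CLP call was also lost in 12 of the 16 fits that left out 1 array, with adjusted p from 0.00412 to 0.0217. The landiolol call was lost without sham replicate 1 or sham replicate 4, at -0.69 and -0.70.

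Nmnat1 in males lay at 9.38 ± 0.20 (SD, n = 5) in sham, 8.66 ± 0.27 (SD, n = 5) in CLP and 8.86 ± 0.18 (SD, n = 6) in landiolol hearts. The male CLP difference was -0.72 beside -0.71 in females. Landiolol males differed from CLP by 0.20 (limma, adjusted p = 0.516) and from sham by -0.52 (limma, adjusted p = 0.0237), neither of which passed. Within the male slides the landiolol difference from CLP was -0.01 and 0.48.

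NMNAT3 is described as the mitochondrial form. Nmnat3 levels in females were 10.88, 10.36, 10.30, 11.05 and 10.26 in sham hearts and 9.87, 9.93, 9.74, 9.70 and 9.59 in CLP hearts, without overlap. The difference was -0.81 (SE 0.18), a 1.75-fold lower level that missed the 1% threshold narrowly (limma, adjusted p = 0.0101). It was called with normexp background correction (adjusted p = 0.00345), with slide as a term (adjusted p = 0.00889) and by SAM, and was -0.73 with row as a term (adjusted p = 0.0634). Landiolol females, from 9.59 to 10.33, overlapped both other groups and differed from sham by -0.72 (limma, adjusted p = 0.0124) and from CLP by 0.09 (limma, adjusted p = 0.93). In males the means were 10.63 ± 0.25 (SD, n = 5), 9.94 ± 0.10 (SD, n = 5) and 10.17 ± 0.22 (SD, n = 6). Landiolol males differed from CLP by 0.23 (limma, adjusted p = 0.444) and from sham by -0.46 (limma, adjusted p = 0.0363).

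Nnmt, Cd38, Sirt1 and Sirt3, the genes of the set that spend NAD or clear its precursor, did not pass a limma test at the thresholds used. Nnmt had female means of 8.98 ± 0.16 (SD, n = 5) in sham, 9.24 ± 0.40 (SD, n = 5) in CLP and 9.45 ± 0.26 (SD, n = 6) in landiolol hearts. All landiolol females, from 9.12 upwards, lay above all sham females, which reached 9.10. That difference was 0.47 (SE 0.18) and did not pass (limma, adjusted p = 0.0997). In males the landiolol difference from sham was 0.63 (SE 0.17), which also missed the 1% threshold (limma, adjusted p = 0.0299), and the difference from CLP was 0.33 (limma, adjusted p = 0.39). The other 2 Nnmt probes were not called either. Their differences in landiolol males were 0.45 and 0.42 from sham and 0.11 and -0.13 from CLP, and in females 0.62 and 0.24 from sham with landiolol and 0.13 and 0.04 after CLP.

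Cd38, the main NAD glycohydrolase of many tissues, had its lowest female mean in the CLP group. Its levels were 7.27, 6.88, 7.18, 6.23 and 7.39 in sham hearts and 6.15, 6.05, 6.36, 6.46 and 5.84 in CLP hearts, which overlapped through 1 sham heart. The difference was -0.82 (SE 0.23) and did not pass the 1% threshold (limma, adjusted p = 0.0348). Landiolol females were 0.54 (SE 0.22) above CLP (limma, adjusted p = 0.434). In males all groups had means near 6.1 to 6.3, and the landiolol difference from CLP was 0.01 (limma, adjusted p = 0.993).

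Sirt1 encodes a nuclear and Sirt3 a mitochondrial NAD-dependent deacylase. Sirt1 in females was 10.93 ± 0.29 (SD, n = 5) in sham, 11.29 ± 0.43 (SD, n = 5) in CLP and 11.17 ± 0.35 (SD, n = 6) in landiolol hearts, and the CLP difference of 0.36 did not pass (limma, adjusted p = 0.374, 95% interval -0.12 to 0.83). In landiolol males it was 0.46 above sham (limma, adjusted p = 0.0596). Sirt3 was at -0.08 in CLP females (limma, adjusted p = 0.91, 95% interval -0.63 to 0.48) and 0.07 between landiolol and sham males (limma, adjusted p = 0.84).

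**Figure D3:**
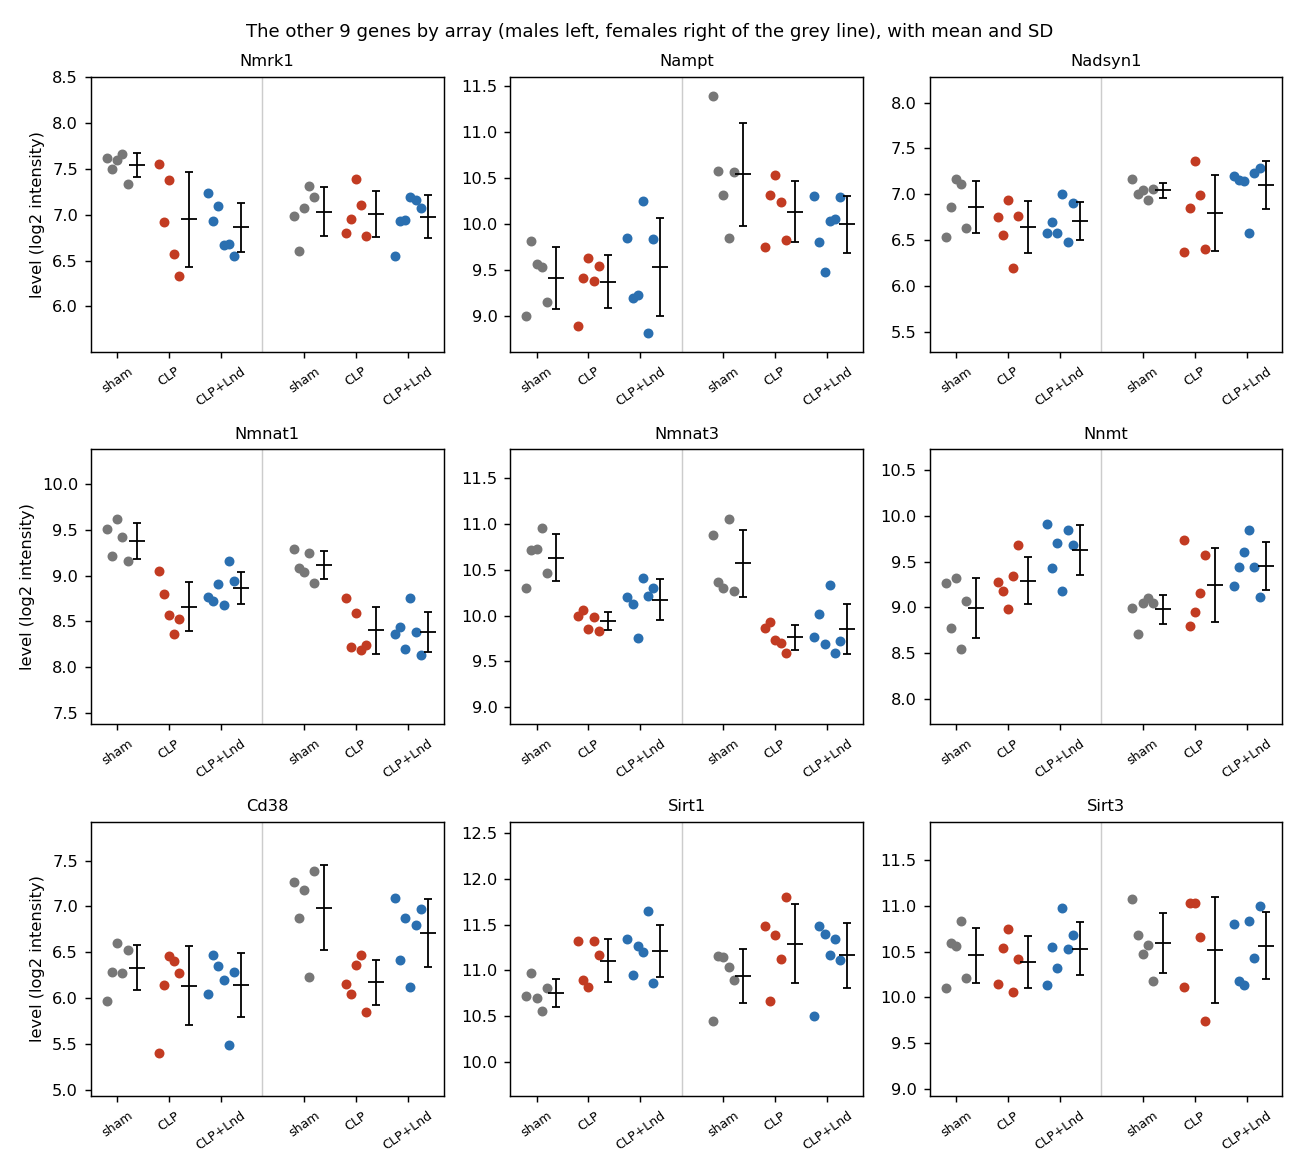
Log2 level on each array for the 9 genes other than Nmrk2, by group and sex, with bars for the group mean and SD. Every panel spans 3 log2 units, so distances can be compared between panels, and levels cannot be compared between genes because each comes from its own probe. In females the sham and CLP points separate for Nmnat1 and Nmnat3, and how many of all probes separate in this way was not counted.

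The effects in males and females did not differ by a test for these genes, which does not show them to be equal. With both sexes in 1 fit, 0 of the 9 genes other than Nmrk2 passed limma for a difference between males and females in the CLP effect, beside 0% of 26492 probes, and 0 of 9 in the effect of landiolol over CLP, again beside 0%. Under an unadjusted p of 0.05 there were 1 and 0 genes, and no other tool was run for this difference. The single gene was Nmrk1, at -0.59 in males and -0.03 in females, a difference of -0.56 (SE 0.27) with an unadjusted p of 0.0461 and an adjusted p of 1 (limma). Over the 9 genes the adjusted p ran from 0.968 to 1. For Nmrk2 the CLP effect was -4.47 in males and -4.23 in females in that fit.

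The other genes of NAD metabolism were taken from 7 lists of 44 genes, of which 42 had a probe on the array and 38 were kept in males and 37 in females. After CLP in males Enpp3 was called higher and Parp1 and Nudt12 lower, beside 7.81% of all probes called. Sarm1 is left out there because it was kept through the sham hearts alone. In CLP females 1 was called higher and 2 lower, beside 3.63%. Between landiolol and sham 1 was higher and 1 lower in males, beside 4.15%, and 2 higher and 3 lower in females, beside 5.25%. Between landiolol and CLP limma called 0 in either sex, with 10 genes in males and 3 in females under an unadjusted p of 0.05, while SAM called 1 in males and 0 in females. The median CLP difference over the genes kept was -0.08 in males and -0.07 in females.

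The list of 8 genes for precursor and extracellular nucleotide handling also held the NAD hydrolase gene Nudt12. On this list Enpp3 was called higher in both sexes and Nudt12 was called lower in CLP males. Enpp3, an ectoenzyme that splits nucleotides outside the cell, was called higher in all 4 contrasts with sham. In males it rose by 1.52 (SE 0.22) after CLP (limma, adjusted p = 0.000302) and was 1.56 above sham with landiolol (limma, adjusted p = 0.000288). In females the differences were 1.58 (SE 0.27, limma, adjusted p = 0.00181) and 1.34 (SE 0.26, limma, adjusted p = 0.00332), and landiolol differed from CLP by 0.05 in males and -0.25 in females. The call in landiolol females was lost without sham replicate 1 (limma, adjusted p = 0.0112). Nudt12, a hydrolase of NAD and NADH, fell by 0.67 in CLP males (limma, adjusted p = 0.00924) and was at -0.61 in CLP females, which did not pass (limma, adjusted p = 0.0476). The Nudt12 call was lost under 5 of 12 alternatives, SAM and row as a term among them, and in 11 of the 16 fits that left out 1 array.

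Of 15 ADP-ribosyltransferases, which transfer the ADP-ribose part of NAD to proteins, 13 were kept. Against sham 1 was called lower in CLP males, beside 3.94% of all probes, and 1 in landiolol males, beside 1.76%. In females 1 was called lower after CLP, beside 1.82%, and 3 with landiolol, beside 2.24%. Parp1, the main nuclear enzyme of this kind, was lower in CLP males by -0.55 (limma, adjusted p = 0.00527), in landiolol males by -0.69 (limma, adjusted p = 0.00119) and in landiolol females by -0.63 (limma, adjusted p = 0.00678). In CLP females its difference was -0.40 (limma, adjusted p = 0.0965). The Parp1 call in CLP males was lost by SAM, with only the 2 groups fitted (limma, adjusted p = 0.0196) and in 5 of the 16 fits that left out 1 array, and that in landiolol females in 9 of 16. Parp14 was lower in females, at -1.98 in CLP (limma, adjusted p = 0.00281) and -2.42 in landiolol hearts (limma, adjusted p = 0.00042), beside -1.09 in CLP males (limma, adjusted p = 0.118). Parp9 was -1.56 from sham in landiolol females (limma, adjusted p = 0.00704), a call lost with no filter (adjusted p = 0.0156) and in 10 of the 16 fits that left out 1 array. With only the 2 groups fitted the call of Parp14 in CLP females was lost too (limma, adjusted p = 0.0177). The difference between the sexes was not tested for these genes.

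The route from tryptophan had 5 of 9 genes kept. Ido1, which opens the tryptophan ring, was 11.52 ± 1.33 (SD, n = 5) in sham females and 5.84 ± 2.96 (SD, n = 5) in CLP females, where 3 of 5 arrays were well above background, a difference of -5.68 (SE 1.16, limma, adjusted p = 0.0058). That call was lost with no filter (adjusted p = 0.0154), with only the 2 groups fitted (adjusted p = 0.0226) and in 7 of the 16 fits that left out 1 array. In males the difference was -1.72 and did not pass (limma, adjusted p = 0.401). Its relative Ido2 differed by -2.88 in CLP females without passing (limma, adjusted p = 0.0156), and a second Ido2 probe was called lower in landiolol females, at -1.83 (limma, adjusted p = 0.00471).

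The remaining lists had few calls. Nadk, the cytosolic kinase that makes NADP from NAD, was 0.61 above sham in landiolol females (limma, adjusted p = 0.00602), while its second probe, at 0.30, was not called (limma, adjusted p = 0.178). The Nadk call was lost with only the 2 groups fitted (limma, adjusted p = 0.0104) and in 8 of the 16 fits that left out 1 array. Sarm1, another NAD glycohydrolase, was 5.03 ± 0.09 (SD, n = 5) in sham males and 3.45 ± 0.75 (SD, n = 5) in CLP males, where 1 of 5 arrays was well above background. It was kept through the sham hearts alone, so its difference of -1.58 is a description, and the deposited log2 table gave -0.13. Naprt and Nmnat2 did not pass in any contrast, with CLP differences of 0.33 and -0.31 in females and 0.15 and 0.31 in males. None of the 5 other sirtuins passed, the largest CLP differences being Sirt5 at -0.40 in males and -0.50 in females and Sirt4 at 0.40 and 0.29. With row as a term all the female landiolol calls against sham in these lists were lost, and in CLP females the adjusted p was 0.0105 for Ido1, 0.0266 for Parp14 and 0.0151 for Enpp3, none of which passes 1%.

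**Figure D4:**
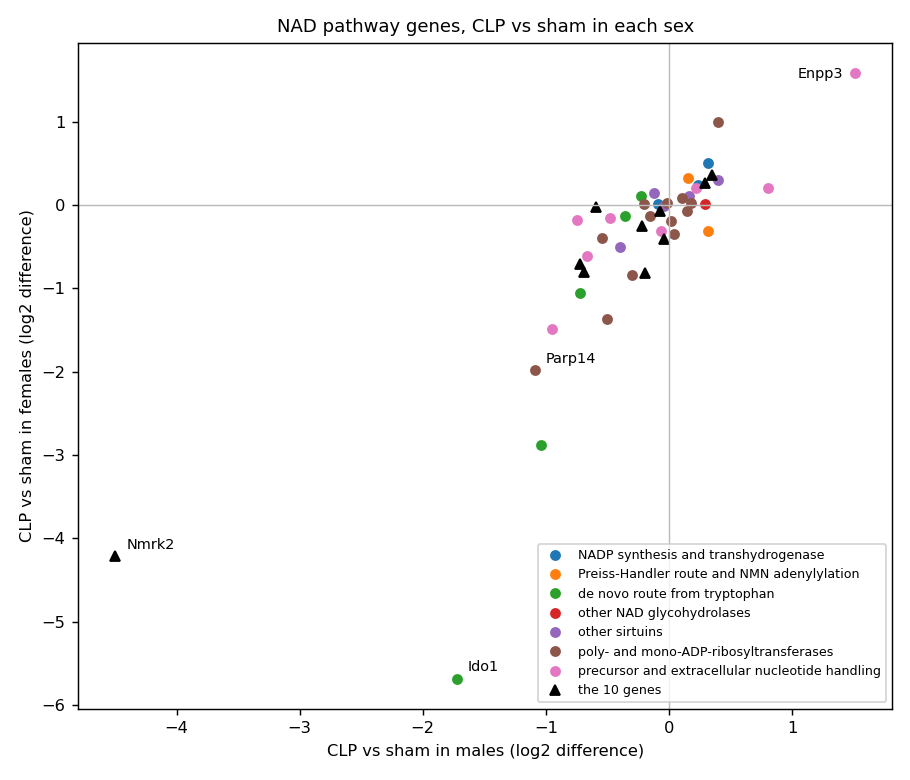
Difference between CLP and sham in males (horizontal) and females (vertical), log2 scale, for 37 other genes of NAD metabolism (points) and the 10 genes described (triangles), with lines at 0. Nmrk2 lies at -4.50 and -4.21, Enpp3 at 1.52 and 1.58, and Ido1 at -1.72 and -5.68.

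The genes whose levels followed Nmrk2 most closely were sought over the 16 male and the 16 female arrays, among 19360 probes kept in both sexes. The highest mean Pearson correlations belonged to Ciao3 (0.959 in males, 0.962 in females), Perm1 (0.958 and 0.961), Myocd (0.960 and 0.945), Nceh1 (0.965 and 0.936) and Klhl31 (0.930 and 0.966). All were lower after CLP, which their choice by correlation with Nmrk2 made likely in advance, with Perm1 at -3.15 in males and -2.61 in females. These correlations are a description, since the arrays share the groups and the points are not independent within them. Among the NAD genes Nmnat3 ranked 136th, with 0.844 in males and 0.866 in females, and Nmnat1 226th, with 0.772 and 0.885. Sirt1 ran the other way, at -0.62 and -0.45.

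The make-up of the tissue was read from marker genes, because in whole ventricle fewer cells of a type and less RNA per cell cannot be told apart. The summed level of the 8 cardiomyocyte markers ranged from 20.86 to 20.99 in sham males, 20.73 to 20.88 in CLP males and 20.76 to 20.96 in landiolol males, and from 20.95 to 21.10, 20.90 to 20.97 and 20.84 to 21.06 in females. None of the 8 was called in any contrast. Some macrophage markers were called higher after CLP, neutrophil markers had higher levels, and the part of both in the results was not tested. S100a8 and S100a9, the 2 of 5 neutrophil markers kept, had a summed level of 3.72 to 5.52 in sham and 6.67 to 10.05 in septic hearts. S100a8 was well above background on 23 and S100a9 on 27 of 32 arrays. Both were low in sham hearts, so their values are a description with no test. Mmp8, a granule protein of neutrophils, was well above background on 0 of 32 arrays. Of 7 macrophage and monocyte markers 3 were called higher in each septic group, Adgre1, Cd68 and Lyz2, and the rest were not called. The median difference from sham over the 7 was 0.85 in CLP males, 0.57 in landiolol males, 0.54 in CLP females and 0.89 in landiolol females. Their summed level was 13.53 to 14.48 in sham and 14.52 to 15.65 in septic hearts. Beside these and the next marker calls, the shares of all probes called in either direction were 7.81%, 4.15%, 3.63% and 5.25%, in the same order. Among 5 fibroblast markers Col1a1 and Col3a1 were lower and Tcf21 higher in CLP males, and Tcf21 was also higher in landiolol males. Among 5 endothelial markers Kdr alone was called, higher in landiolol females. Of 7 lymphocyte and plasma cell markers 3 were kept and 0 called, and 0 of 4 adipocyte markers were kept.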

How the data were processed

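RNA of 32 left ventricles was hybridised to 1-colour Agilent arrays and scanned by the authors with Agilent Feature Extraction 10.5. The deposited intensity of each spot is background-subtracted, and the authors also deposited a table of quantile-normalised log2 values, used as an alternative. After removal of control and outlier spots, intensities were taken to log2 and averaged per probe, and quantile normalisation was run on 16 arrays at a time, separately for each sex. Probes well above background on 80% of the arrays of at least 1 group were kept. The fit for each sex used limma 3.58.1 in R 4.3.3, with data.table version 1.17.8 for reading and Benjamini-Hochberg adjustment over all probes, at an FDR of 1% against sham and 5% for CLP plus landiolol against CLP. Sex differences were tested at 5% on the 32 arrays normalised together. SAM used 100 permutations. The code was tested on simulated data.

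Symbols came from the files, and the brighter Nmrk2 probe is named only in the female files. All 10 genes are named, each by its probe with the highest mean. Up to 4 called genes per list are named by size, or the 2 largest where none passed, and the 5 genes most like Nmrk2. Members, lists and tests were chosen with earlier results of these data known. Nothing in the labels pairs the samples, and p-values measure the spread between hearts.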

Additional observations from a re-analysis of the deposited data

Results flagged for a closer look

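In 3 of the 60 sets formed by a gene and a group, 1 heart lay far from the others by Dixon's criterion, and chance alone gives about 1 in 20 such sets. The highest Nmrk2 level among CLP plus landiolol females was 8.377 (replicate 4), with the next heart at 6.551. The lowest Nadsyn1 level among CLP plus landiolol females was 6.582, in the same heart, with the next at 7.142. The lowest Nnmt level among sham females was 8.71 (replicate 2), with the next at 8.995.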

How the results depend on the processing

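Male Nmrk2 values are a description, so its male calls are not counted here. In landiolol males against CLP no other gene of the 10 was called under any alternative run, leave-one-out fits included. The Nmrk2 difference there was 1.82, became 1.04 with normexp background correction and ran from 1.63 to 1.99 when 1 array was left out. In landiolol males against sham no gene other than Nmrk2 was called in the main fit. Nmrk1 was called with slide as a term and by SAM. At an FDR of 5% Nmrk1, Nnmt, Nmnat1 and Nmnat3 were called, and leaving out 1 array added none. In CLP females the number of the 10 genes called, Nmrk2 included, was 2. It became 1 with row as a term, 1 when only the 2 groups were fitted and 4 at an FDR of 5%. It became 3 through Nmnat3 with normexp background correction (limma, adjusted p = 0.00345), a trended prior (0.00759) and slide as a term (0.00889). The same held with a filter on all arrays of the sex (limma, adjusted p = 0.00954), the deposited table (0.00712) and SAM. Leaving out 1 array gave a number from 1 to 3. In landiolol females against sham it was 2 and became 0 with row as a term. It became 3 through Nmnat3 with normexp background correction (adjusted p = 0.00413), a trended prior (0.0093), the deposited table (0.00872), SAM and an FDR of 5%, and leaving out 1 array gave 1 to 3. In landiolol females against CLP and in both sex differences it was 0 under all alternatives run, leave-one-out fits included. Of the 38 and 37 other genes of NAD metabolism tested in males and females, SAM called 2 and 5 after CLP, where limma called 4 and 3. Sarm1, whose values are a description, was among the male genes counted by both. Over all probes SAM called 2522 and 1251 there and limma 2021 and 923. For landiolol against sham SAM called 3 and 10 of these genes and limma 2 and 5, with 1386 and 2680 of all probes by SAM and 1074 and 1332 by limma. Why these counts moved was not tested, apart from the changed thresholds. Of 2861 single-gene values recomputed, 2739 kept their direction and side of the threshold or failed to pass both times, and no value called in either fit changed sign. The brighter and dimmer Nmrk2 probes gave 0.82 and -0.61 for landiolol against CLP in females, neither called, and the dimmer was well above background in 0 of 6 landiolol females. No paired analysis was possible because the labels carry no replicate numbers shared between groups. Genes near background, such as Sarm1, Ido1 and the dimmer Nmrk2 probe, are limited by signal over background.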
